A study of Mus musculus with 13 samples.

Results

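The 10 genes described here are macrophage genes of mouse sciatic nerve, measured in diabetic and control mice. They were taken by symbol from the 15437 genes of the deposited table, and all 10 were measured, each by 1 probe set. They fall into 4 roles: Chil3, the mark of alternative activation; Timd4, Mrc1, Cd163, Lyve1 and Folr2, receptors of tissue-resident macrophages; Adgre1 and Csf1r, general macrophage receptors; and Cx3cr1 and Cd14, receptors shared with monocytes. RNA came from sciatic nerve of BKS db/db mice (samples 110, 111, 112, 409, 410 and 411) and BKS db/+ mice (samples 101, 103, 104, 105, 106, 404 and 407), aged 24 weeks in every case. The db mutation disrupts the leptin receptor: db/db mice carry the mutation on both alleles and become obese and diabetic, and db/+ mice carry it on 1 allele. Each sample was hybridised to 1 Affymetrix array, and levels are log2 values that the authors made with RMA, so that a difference of 1 is a doubling. The labels do not state that each sample came from a separate animal, so a p-value here covers only sample-to-sample spread, and precision is limited by how many arrays there are.

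Resident macrophages settle in a tissue, renew themselves locally and clear dead cells and debris, which they recognise through scavenger and phosphatidylserine receptors. Their survival depends on the receptor encoded by Csf1r and its ligands. Alternative activation is the response of macrophages to interleukin 4 and interleukin 13, which signal through the transcription factor STAT6. In peripheral nerve, macrophages lie among the axons and in the outer sheath, and they take up myelin and axon debris after injury.

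The 10 genes were chosen by name with the log2 levels of these same arrays, db/db against db/+, already known. Their genotype differences are therefore given as a description, with an SE from the fit to all genes and with no test. Tests are given only for contrasts that the choice did not use and for other genes. The other genes were tested on the same genotype contrast, and their lists were chosen with earlier results of these data known. Their p-values do not account for that choice. In whole nerve, fewer cells of a type and less RNA per cell cannot be told apart. The values carry no detection calls, so a low level was not separated from background.

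Arrays db/+ 101, 103, 104 and 106 stood apart from the rest. The mean level of 10 neuron markers ran from 6.87 to 7.55 in db/db and, in db/+, from 11.48 to 12.21 on these 4 arrays and from 7.73 to 8.70 on the other 3. Skeletal muscle markers also varied from array to array, from 6.12 to 11.50 in db/db and from 6.46 to 11.79 in db/+, with db/+ 101 the highest of all. The difference between the signals of the 3′ and 5′ actin control probe sets, a sign of RNA or labelling quality, was 0.485 to 0.916 in db/db, 0.963 to 1.395 on the 4 db/+ arrays and 0.399 to 1.144 on the other db/+ arrays. Sample numbers ran from 101 to 112 and from 404 to 411, and what they mark is not stated. Results are given with and without the 4 arrays where these change them.

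Promoters of 6 of the 10 genes could be read from a RefSeq table of mouse build GRCm38.p6, which gives 250 bases before and 50 after a gene's start. Promoters of Chil3 and Timd4 are shown because these genes had the widest differences between genotypes, in opposite directions. In the Chil3 promoter (chr3:106167515-106167814, minus strand) capitals mark TTCNNNGAA, the spaced half-sites that STAT proteins bind, and TATAAA. In the Timd4 promoter (chr11:46810549-46810848, plus strand) capitals mark GGAA and GAAA with 2 bases between them, the composite letters bound by the macrophage factor PU.1 together with an interferon regulatory factor.
Chil3: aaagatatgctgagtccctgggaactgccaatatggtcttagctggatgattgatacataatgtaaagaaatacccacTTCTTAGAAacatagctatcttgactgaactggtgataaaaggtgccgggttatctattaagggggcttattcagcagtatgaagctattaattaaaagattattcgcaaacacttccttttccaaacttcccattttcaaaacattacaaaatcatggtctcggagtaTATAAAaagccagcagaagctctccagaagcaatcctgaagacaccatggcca
Timd4: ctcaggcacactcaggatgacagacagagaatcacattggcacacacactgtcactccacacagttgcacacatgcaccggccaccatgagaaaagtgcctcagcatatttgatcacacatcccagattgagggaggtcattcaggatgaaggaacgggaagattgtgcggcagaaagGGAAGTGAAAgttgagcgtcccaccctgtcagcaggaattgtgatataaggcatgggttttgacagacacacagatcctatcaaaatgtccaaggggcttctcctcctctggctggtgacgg
The STAT letters began at position -172 and TATAAA at -3 from the Chil3 start, and the composite letters began at -72 from the Timd4 start. Among 32851 promoters of the same length searched on both strands, TTCNNNGAA was present in 8.3%, TATAAA in 13.6% and the GGAA and GAAA composite in 2.72%. TTC and GAA with 4 bases between them, the spacing that STAT6 favours, were in 6.95% of promoters and in neither of these windows. The composite was also in the Folr2 window at -136, and the Mrc1 window held GAGGAA, the core bound by PU.1, at -180, -167 and -35 on its reverse strand (28.3% of all promoters held it). A match describes letters in a window and does not show that a factor binds there.

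Chil3 had the widest difference of the 10 genes. It encodes a secreted chitinase-like protein, also called Ym1, that interleukin 4 induces in mouse macrophages and that developing neutrophils also make. Its level was 9.12, 9.11, 10.90, 12.44, 9.59 and 9.75 in db/db samples 110, 111, 112, 409, 410 and 411, against 3.85, 5.13, 5.51, 3.52, 6.22, 5.34 and 9.89 in db/+ samples 101, 103, 104, 105, 106, 404 and 407. Every db/db array was above 6 of the 7 db/+ arrays, and the groups overlapped through db/+ 407 alone, which exceeded 4 of the db/db arrays. The mean was 10.15 ± 1.30 in db/db (SD, n = 6) and 5.64 ± 2.10 in db/+ (SD, n = 7), a log2 difference of 4.51 ± 0.91 (SE), or 22.8-fold. The lower quartile of all genes was 6.16 to 6.34 per array, close to or above 6 of the db/+ levels, and RMA compresses folds of such dim genes. The difference was 3.90 ± 1.26 without the 4 arrays and 2.98 ± 1.57 within samples 404 to 411, where 407 is 1 of 2 db/+ arrays.

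Timd4 differed in the opposite direction. It encodes TIM-4, a phosphatidylserine receptor through which long-lived resident macrophages take up apoptotic cells. Its level was 5.87, 5.70, 7.16, 7.36, 6.56 and 7.36 in db/db samples 110, 111, 112, 409, 410 and 411, against 6.46, 9.24, 8.44, 8.84, 8.60, 8.96 and 9.77 in db/+ samples 101, 103, 104, 105, 106, 404 and 407. Every db/db array was below 6 of the 7 db/+ arrays, and db/+ 101 lay within the db/db range. The mean was 6.67 ± 0.75 in db/db (SD, n = 6) and 8.62 ± 1.04 in db/+ (SD, n = 7), a log2 difference of -1.95 ± 0.47 (SE), or 3.86-fold lower in db/db. Without the 4 arrays, which include 101, the groups were separate and the difference was -2.52 ± 0.42. It was -2.27 ± 0.36 within samples 404 to 411 and -2.07 ± 0.63 within samples 101 to 112. Db/+ 407, the array with the highest Chil3 of its group, also had the highest Timd4.

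**Figure D1:**
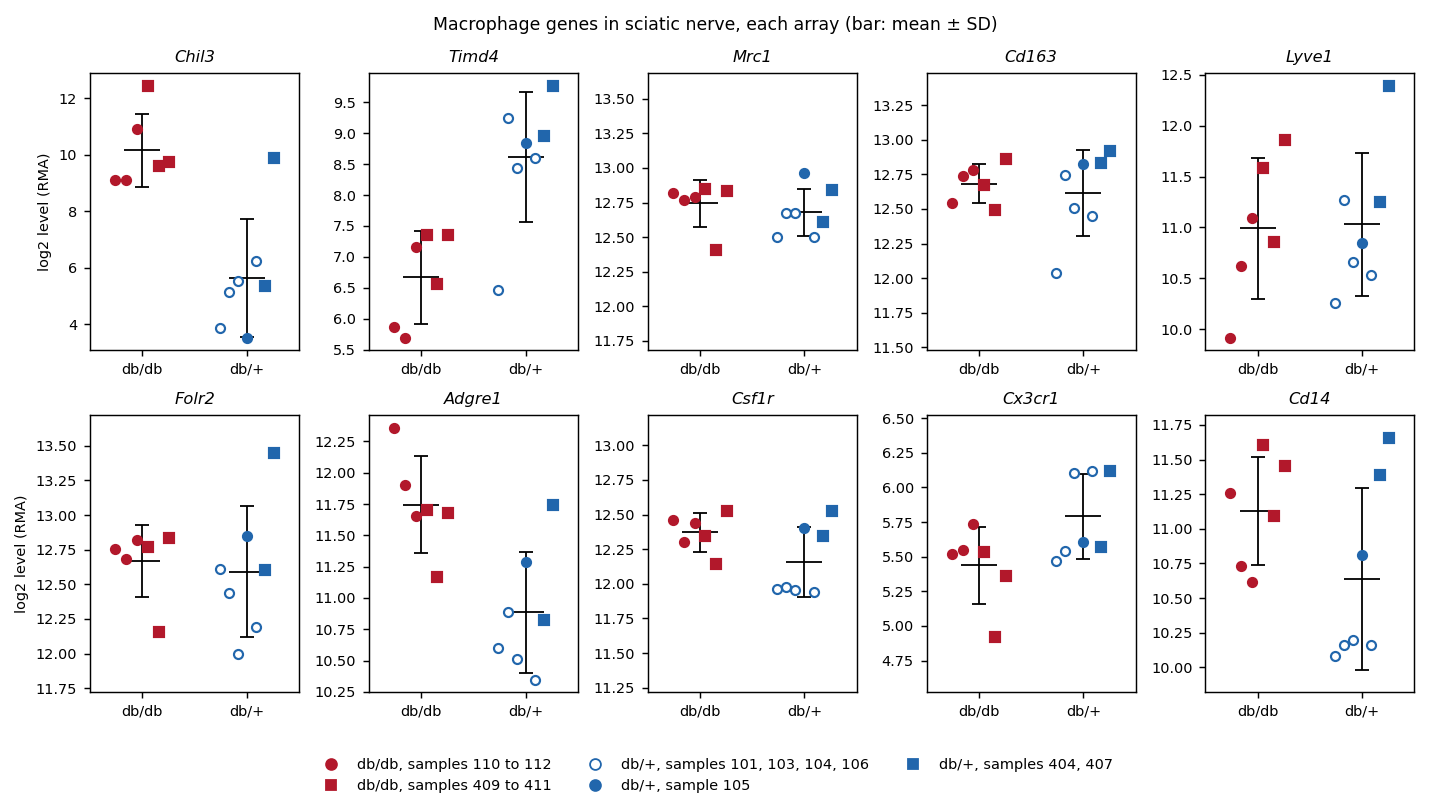
Log2 level (RMA) of each of the 10 macrophage genes, a panel a gene with its own axis, db/db left and db/+ right. Points are arrays, with circles for samples 101 to 112, squares for 404 to 411 and open circles for db/+ 101, 103, 104 and 106, and bars are mean ± SD. Chil3 lies at 9.11 to 12.44 in db/db and 3.52 to 9.89 in db/+, Timd4 at 5.70 to 7.36 in db/db and 6.46 to 9.77 in db/+, and the groups overlap in all 10 panels.

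Over all 13 arrays, the 4 other receptors of resident macrophages had means that differed between genotypes by less than their SE. Without db/+ 101, 103, 104 and 106, the log2 differences were -0.06 ± 0.13 (SE) for Mrc1 and -0.18 ± 0.11 for Cd163. On those arrays they were -0.30 ± 0.21 for Folr2 and -0.51 ± 0.45 for Lyve1. Mrc1 encodes the mannose receptor CD206, which binds sugars on microbes and on serum glycoproteins and is raised by interleukin 4. Its lowest, median and highest levels were 12.41, 12.80 and 12.85 in db/db and 12.50, 12.67 and 12.96 in db/+, a log2 difference of 0.06 ± 0.10 (SE). Cd163, the scavenger receptor for haemoglobin bound to haptoglobin, had 12.50, 12.71 and 12.86 in db/db and 12.04, 12.75 and 12.92 in db/+, a difference of 0.07 ± 0.14. The db/db range of Cd163 lay inside its db/+ range, and 2 db/+ arrays were below every db/db array.

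Folr2 encodes folate receptor beta, a marker of resident macrophages. Its lowest, median and highest levels were 12.15, 12.76 and 12.83 in db/db and 12.00, 12.60 and 13.45 in db/+, a log2 difference of 0.08 ± 0.21 (SE). Lyve1, a hyaluronan receptor of macrophages around vessels and of lymphatic endothelium, was the most variable of these 4 genes, at 9.92, 10.98 and 11.86 in db/db and 10.25, 10.85 and 12.39 in db/+, a difference of -0.04 ± 0.36. Both had their highest level of all 13 arrays in db/+ 407. The mean level of 5 other genes of lymphatic endothelium, such as Pdpn and Reln, was 8.90 to 9.69 in db/db and 9.27 to 10.30 in db/+. Of these 5, 0 rose and 2 fell, and their part in the Lyve1 level was not tested.

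Of the general macrophage receptors, Adgre1 was higher in db/db nerve on average. It encodes the adhesion receptor most commonly used to identify mouse macrophages. Its level was 12.36, 11.90, 11.66, 11.70, 11.16 and 11.68 in db/db samples 110, 111, 112, 409, 410 and 411, against 10.60, 10.89, 10.51, 11.29, 10.35, 10.82 and 11.74 in db/+ samples 101, 103, 104, 105, 106, 404 and 407. The groups overlapped: db/+ 407 exceeded 4 of the db/db arrays, and db/+ 105 exceeded db/db 410. The mean was 11.74 ± 0.39 in db/db (SD, n = 6) and 10.89 ± 0.48 in db/+ (SD, n = 7), a log2 difference of 0.86 ± 0.23 (SE), or 1.81-fold. The difference was 0.46 ± 0.26 without the 4 arrays and 0.23 ± 0.32 within samples 404 to 411.

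Csf1r, the receptor for the growth factors CSF1 and interleukin 34, had a lowest, median and highest level of 12.14, 12.40 and 12.53 in db/db and 11.94, 11.98 and 12.53 in db/+, a log2 difference of 0.21 ± 0.12 (SE). The 4 db/+ arrays that stood apart lay between 11.94 and 11.98, below every other array. The remaining db/+ arrays were at 12.35 to 12.53, inside the db/db range, and without the 4 arrays the difference was -0.05 ± 0.11.

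Cd14, the lipopolysaccharide co-receptor of monocytes and macrophages, showed the same split. Its lowest, median and highest levels were 10.62, 11.18 and 11.60 in db/db and 10.08, 10.20 and 11.66 in db/+, a log2 difference of 0.49 ± 0.29 (SE). The 4 arrays were at 10.08 to 10.20, below every db/db array, and the other db/+ arrays at 10.81 to 11.66. The difference was -0.16 ± 0.26 without them. Cd163, Csf1r and Cd14 were lower on each of the 4 arrays than on each of the other 3 db/+ arrays, as were 3248 of the 15437 genes.

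Cx3cr1, the fractalkine receptor that marks monocytes and some tissue macrophages, was dim. Its lowest, median and highest levels were 4.92, 5.53 and 5.74 in db/db and 5.47, 5.61 and 6.12 in db/+, below the lower quartile of all genes on all 13 arrays. The log2 difference was -0.35 ± 0.16 (SE). Without detection calls such a level cannot be told apart from background.

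With the adjusted p threshold of 0.05 that was used for all genes, 3 of the 10 genes were past it, Chil3 and Adgre1 higher and Timd4 lower, where 25.1% of all genes were past it (13.4% higher and 11.7% lower). The genotypes did not overlap for 0 of the 10 genes and for 9.68% of all genes. The median log2 difference was 0.07 over the 10 genes and 0.02 over all genes. These figures describe the choice of genes and nothing is read from them. Without the 4 arrays 1 of the 10 genes, Timd4, was past the threshold, where 12.9% of all genes were. Within samples 404 to 411 it was again Timd4 alone, where 9.1% of all genes were past it, and within samples 101 to 112 it was Chil3 and Adgre1, where 18.5% of all genes were. Without the 4 arrays the differences of 8 of the 10 genes were negative, against 3 of 10 over all arrays, and the medians were -0.17 over the 10 genes and -0.05 over all genes.

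**Figure D2:**
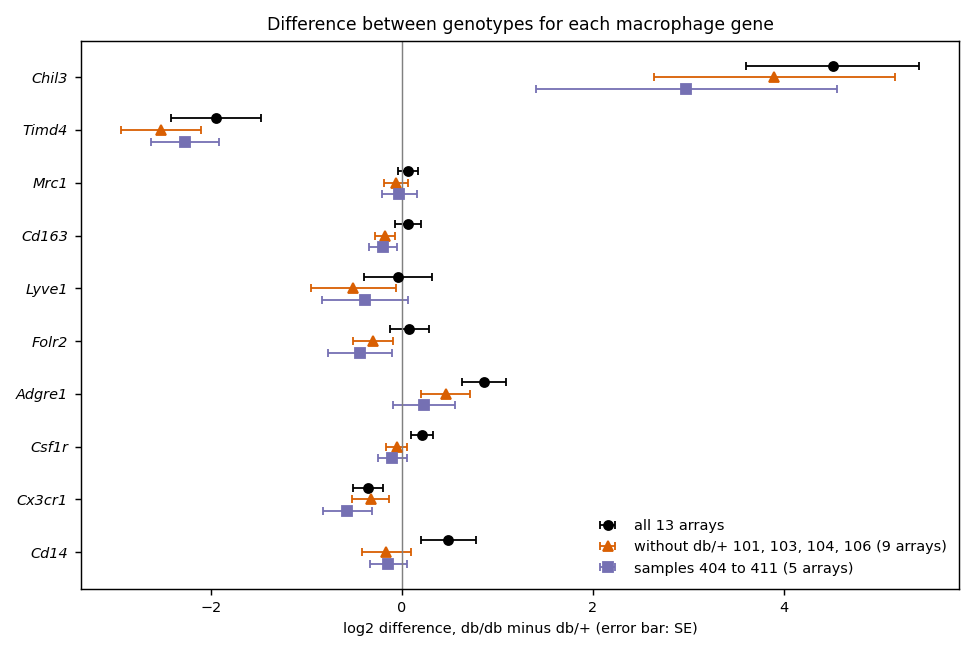
Log2 difference, db/db minus db/+, of each of the 10 genes on the horizontal axis, with the SE as error bar, over all 13 arrays (circles), without db/+ 101, 103, 104 and 106 (triangles) and within samples 404 to 411 (squares). Over these sets of arrays Chil3 lies between 2.98 and 4.51 and Timd4 between -2.52 and -1.95, and Csf1r and Cd14 change from 0.21 and 0.49 over all arrays to -0.05 and -0.16 without the 4.

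Several of the genes had their extremes on the same arrays. Sample 407 had the highest db/+ level of 8 of the genes, all but Mrc1 and Cx3cr1. Sample 410 had the lowest db/db level of 6 genes, Mrc1, Cd163, Folr2, Adgre1, Csf1r and Cx3cr1. A list of 27 other general macrophage genes had its extremes on the same arrays: its mean level ran from 10.77 in db/db 410 to 11.69 in db/db 110, and from 10.26 in db/+ 106 to 11.60 in db/+ 407.

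Levels were therefore also taken relative to the mean of those 27 genes on the same array, a calculation added after the data were seen. Relative to that mean, Chil3 was higher in db/db by 3.91 and Timd4 lower, at -2.55. The subtraction lowers every gene's difference by the same amount, because the mean of the 27 genes was itself higher in db/db. It changes neither the order nor the spacing of the genes. The other receptors of resident macrophages were at -0.54 for Mrc1, -0.54 for Cd163, -0.52 for Folr2 and -0.64 for Lyve1. The relative difference was 0.25 for Adgre1, -0.39 for Csf1r, -0.96 for Cx3cr1 and -0.11 for Cd14. The genotypes overlapped for each of the 10 genes, and nothing was tested on this scale.

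Other genes of these pathways were compared by lists, with limma and Benjamini-Hochberg adjustment over all 15437 genes. The 6 lists held 142 measured genes, of which 39 rose and 10 fell in db/db nerve, where 13.4% of all genes rose and 11.7% fell. Their median log2 difference was 0.34, against 0.02 over all genes. On the 9 arrays left without the 4, 8 rose, all among the 39, and 16 fell, 6 of them among the 10, where 6.12% of all genes rose and 6.78% fell. The median was then 0.04, against -0.05 over all genes. Within samples 404 to 411 the counts were 5 and 7, where 4.93% of all genes rose and 4.17% fell. Of the genes of these lists named below, Il1rn, Pdcd1lg2, Mgl2, Irf4, Mfge8 and Ptgs2 kept their call there, and Csf1 and Alox15 passed. Others, such as Arg1 at 3.19, Cd209g at -2.06, Cd84 at 1.43 and F10 at 1.48, did not pass.

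Among 23 other genes of alternative activation, 9 rose, 4 fell and 10 did not pass, with a median of 0.40. On the arrays left without the 4, 4 rose and 3 fell, with a median of 0.22. Arg1, arginase 1, which turns arginine into ornithine, averaged 10.30 ± 0.94 in db/db (SD, n = 6) and 6.36 ± 0.47 in db/+ (SD, n = 7). Its log2 difference was 3.94 ± 0.37 (SE, limma adjusted p = 1.96e-05), or 15.3-fold. Il1rn, the interleukin 1 receptor antagonist, averaged 9.24 ± 0.70 in db/db and 5.26 ± 0.38 in db/+, a difference of 3.97 ± 0.28 (limma adjusted p = 1.90e-06). Neither gene overlapped between genotypes: the lowest db/db levels were 9.13 for Arg1 and 8.40 for Il1rn, and the highest db/+ levels 7.01 and 5.81. Both also rose without the 4 arrays, by 3.82 and 3.60. Il1rn in db/+ lay below the lower quartile of all genes, 6.16 to 6.34 per array, and Arg1 in db/+ lay on both sides of it.

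Pdcd1lg2, the ligand PD-L2 of the receptor PD-1, rose by 1.59 ± 0.26 (SE, limma adjusted p = 0.00106), with levels of 4.24 to 6.07 in db/db and 3.34 to 4.25 in db/+. It overlapped between genotypes on 1 array of each. All Pdcd1lg2 levels lay below the lower quartile of all genes, 6.16 to 6.34 per array. Chil4, a near-identical copy of Chil3 in the mouse, was below the lower quartile of all genes on all 13 arrays, at 3.99 to 4.45 in db/db and 3.39 to 4.17 in db/+. Its difference of 0.40 ± 0.13 (limma adjusted p = 0.0387) did not pass without the 4 arrays or when any 1 of 8 arrays was left out.

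The 4 genes of the list that fell were Retnla, Mgl2, Irf4 and Cdh1, named after their values were seen. Retnla, resistin-like alpha, was at 13.10 to 13.55 in db/db and 13.57 to 13.66 in db/+, with no overlap, and fell by 0.25 on the log2 scale (limma adjusted p = 0.0345). That is near the top of the scale, since the highest level of any gene was 14.20 to 14.61 per array. Mgl2, a galactose-binding lectin, averaged 5.84 ± 0.51 in db/db (SD, n = 6) and 6.48 ± 0.26 in db/+ (SD, n = 7) and fell by 0.63 (limma adjusted p = 0.0404). Neither passed without the 4 arrays, at -0.26 for Retnla and -0.79 for Mgl2. Irf4, a transcription factor of the interleukin 4 response, was at 6.28 to 6.90 in db/db and 6.73 to 7.96 in db/+ and fell by 0.62 (limma adjusted p = 0.0231), and it fell by 0.96 without the 4 arrays. Cdh1, E-cadherin, fell by 1.45 (limma adjusted p = 0.0133) and did not pass without the 4 arrays, at -0.69. Ccl22, a chemokine that interleukin 4 induces, rose by 1.55 ± 0.36 (SE, limma adjusted p = 0.00830) and did not pass without the 4 arrays, at 1.36.

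**Figure D3:**
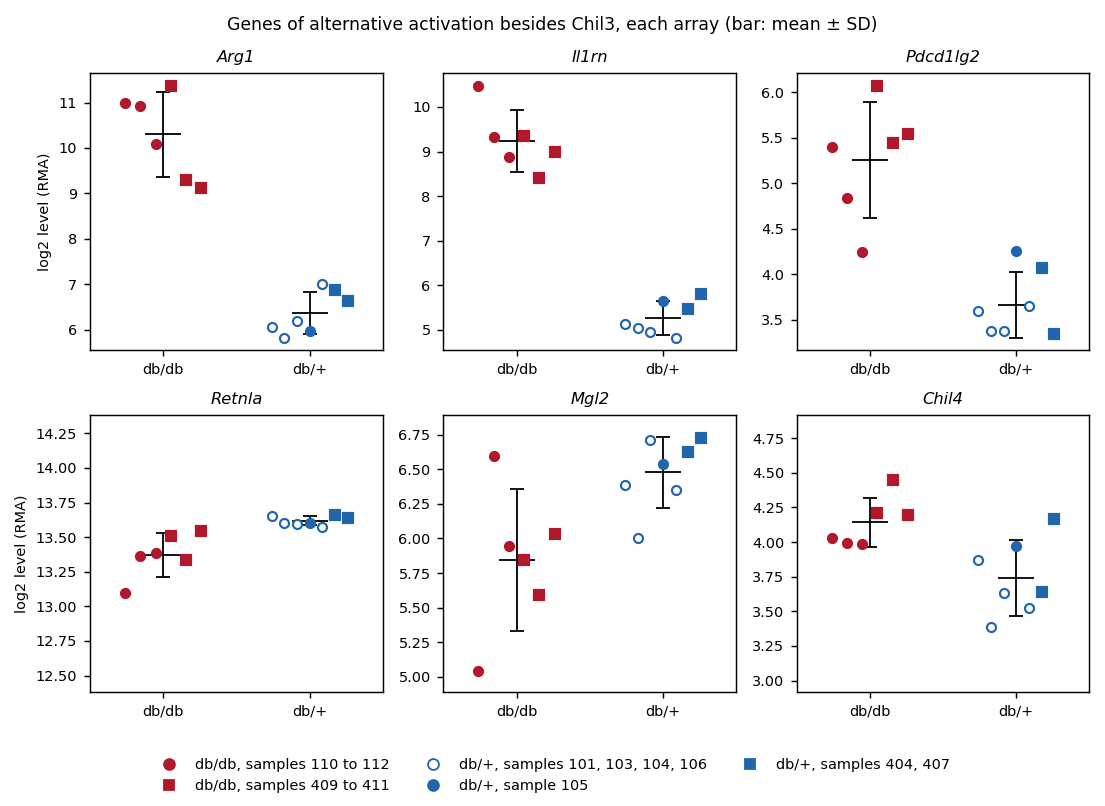
Log2 level (RMA) of 6 genes of alternative activation, a panel a gene with its own axis, db/db left and db/+ right, with the symbols for arrays as above and bars for mean ± SD. Arg1 (9.13 to 11.37 in db/db, 5.83 to 7.01 in db/+) and Il1rn (8.40 to 10.47 in db/db, 4.83 to 5.81 in db/+) do not overlap between genotypes, Retnla is lower in every db/db array than in every db/+ array, and Pdcd1lg2, Mgl2 and Chil4 overlap.

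Of 28 other genes of resident macrophages, 3 rose, 2 fell and 23 did not pass, with a median of 0.11. Cd209g, a C-type lectin of the DC-SIGN family, fell by 1.51 (SE 0.39, limma adjusted p = 0.0148), with levels of 8.65 to 10.51 in db/db and 10.08 to 12.47 in db/+. Its difference was -2.19 without the 4 arrays, where 3 of the 28 genes fell and 0 rose. The median of the 28 was then -0.20, and it was -0.29 within samples 404 to 411. Vsig4, a complement receptor that takes up opsonised particles, rose by 1.64 ± 0.43 (limma adjusted p = 0.0161), with means of 9.97 ± 0.59 in db/db (SD, n = 6) and 8.33 ± 1.02 in db/+ (SD, n = 7). It did not pass without the 4 arrays, where its difference was 1.11. Mertk, a receptor kinase for the uptake of apoptotic cells, rose by 0.47 ± 0.14 (limma adjusted p = 0.0243), a call lost without db/db 110, without db/db 111 and without the 4 arrays, where the difference was 0.38.

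**Figure D4:**
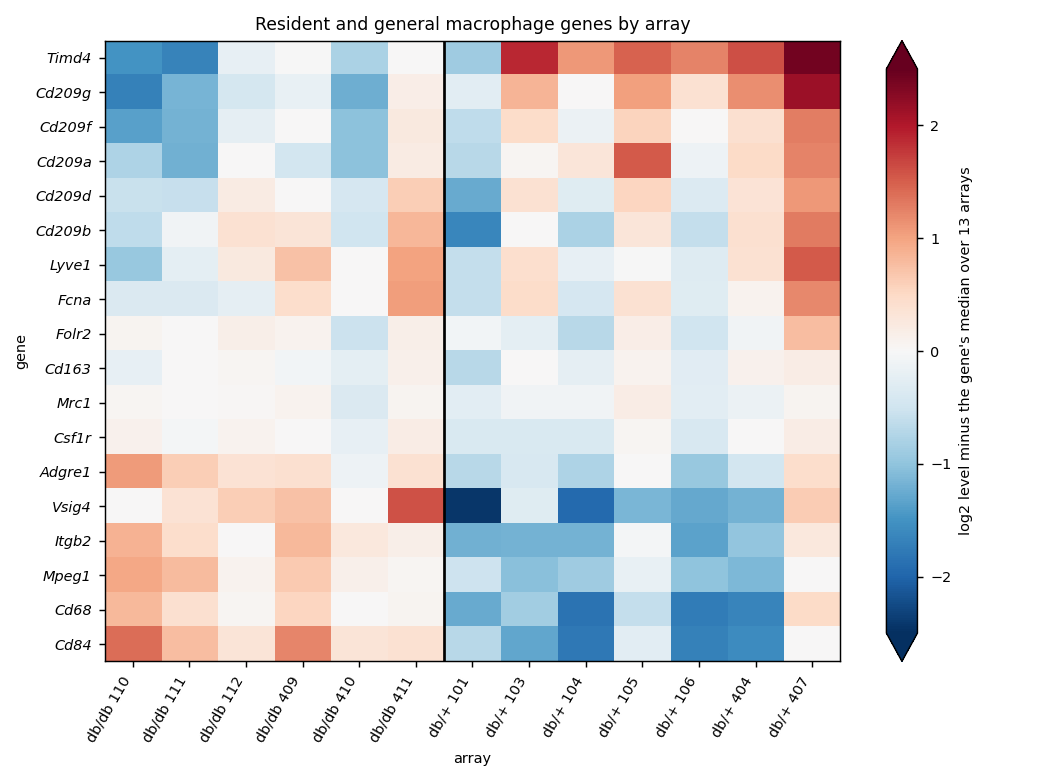
Log2 level minus the gene's median over 13 arrays, in colour, for 18 resident and general macrophage genes (one a line) on each array (columns, db/db left of the black line and db/+ right of it). Timd4 and Cd209g are lower on most db/db arrays, and db/+ 407 is high for most of the resident genes. The general genes Itgb2, Mpeg1, Cd68 and Cd84 are lower on most db/+ arrays. They are among the 12 of 27 listed general genes that rose, and the 15 that did not pass are not drawn.

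General macrophage genes had a higher median difference, 0.58, with 12 of 27 risen, 0 fallen and 15 not past the threshold. Cd84, a homophilic receptor of leukocytes, rose by 1.78 ± 0.32 (SE, limma adjusted p = 0.00200), with levels of 11.10 to 12.19 in db/db and 8.99 to 10.78 in db/+. Mpeg1, a pore-forming protein of phagosomes, rose by 1.13 ± 0.23 (limma adjusted p = 0.00369). Itgb2, the shared chain of the leukocyte integrins, rose by 1.23 ± 0.27 (limma adjusted p = 0.00644). Of the 27, Cd84 alone rose without the 4 arrays, by 1.35, while the differences were 0.88 for Mpeg1 and 0.68 for Itgb2. Emilin2 alone fell on those arrays, by 0.85. The list's median was then 0.24.

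Monocyte genes gave 1 rise among 12, 0 falls and a median of 0.22, and without the 4 arrays 1 rise, 1 fall and a median of -0.02. The gene was F10, coagulation factor X, at 8.58 to 9.96 in db/db and 6.07 to 8.13 in db/+, a log2 difference of 1.98 ± 0.35 (SE, limma adjusted p = 0.00164). Of 18 genes of classical activation, 5 rose and 1 fell, with a median of 0.38, whereas without the 4 arrays 1 rose and 3 fell, with a median of -0.13. Slamf7, a leukocyte surface receptor, rose by 1.32 ± 0.26 (limma adjusted p = 0.00356), and Ptgs2, the inducible cyclooxygenase, fell by 0.89 (SE 0.23, limma adjusted p = 0.0150). Every db/db level of Ptgs2, 4.29 to 4.92, lay below the lower quartile of all genes. Cxcl10, a chemokine induced by interferon, rose by 1.89 ± 0.57 (limma adjusted p = 0.0293). Its level in db/db 409 was 12.67 and that of the other db/db arrays 8.56 to 9.34, and the call was lost without db/+ 104, without db/+ 106 and without the 4 arrays, where the difference was 2.11. Without db/db 409 the difference was 1.26 and still passed. Db/db 409 also had the highest Chil3.

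Ligands and partners of the 10 genes were a list of 35, of which 9 rose and 4 fell, with a median of 0.35. Without the 4 arrays 1 rose and 6 fell, with a median of 0.09, and within samples 404 to 411 the median was -0.08. Csf1, the main ligand of Csf1r, averaged 9.07 ± 0.46 in db/db (SD, n = 6) and 9.46 ± 0.72 in db/+ (SD, n = 7), a log2 difference of -0.39 ± 0.32 (SE, limma adjusted p = 0.392). Its difference was -1.12 without the 4 arrays, and it passed. The other ligand, Il34, fell by 0.50 (SE 0.17, limma adjusted p = 0.0488), and that call was lost under quantile normalization or median centring, without the 4 arrays and on leaving out any 1 of 10 arrays. Its difference was -0.44 without the 4 arrays. Cx3cl1, fractalkine, the ligand of Cx3cr1, was at -0.08 ± 0.08 (limma adjusted p = 0.531).

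Tlr4 and Ly96 form the lipopolysaccharide receptor to which Cd14 passes its ligand. Their differences were 0.49 ± 0.18 and 0.65 ± 0.25 (SE, limma adjusted p = 0.0706 and 0.0700). These were 0.10 and 0.25 without the 4 arrays. Mfge8, a secreted protein that bridges phosphatidylserine to phagocytes as Timd4 binds it directly, rose by 1.35 ± 0.15 (limma adjusted p = 7.01e-05). It was at 13.37 to 13.48 in db/db and 11.69 to 12.65 in db/+, with no overlap, and also rose without the 4 arrays. Havcr2, which encodes TIM-3 of the Timd4 family, rose by 1.73 ± 0.36 (limma adjusted p = 0.00450), and Cd44, a hyaluronan receptor like Lyve1, rose by 0.86 ± 0.18 (limma adjusted p = 0.00483). Neither passed without the 4 arrays, at 1.30 and 0.79.

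**Figure D5:**
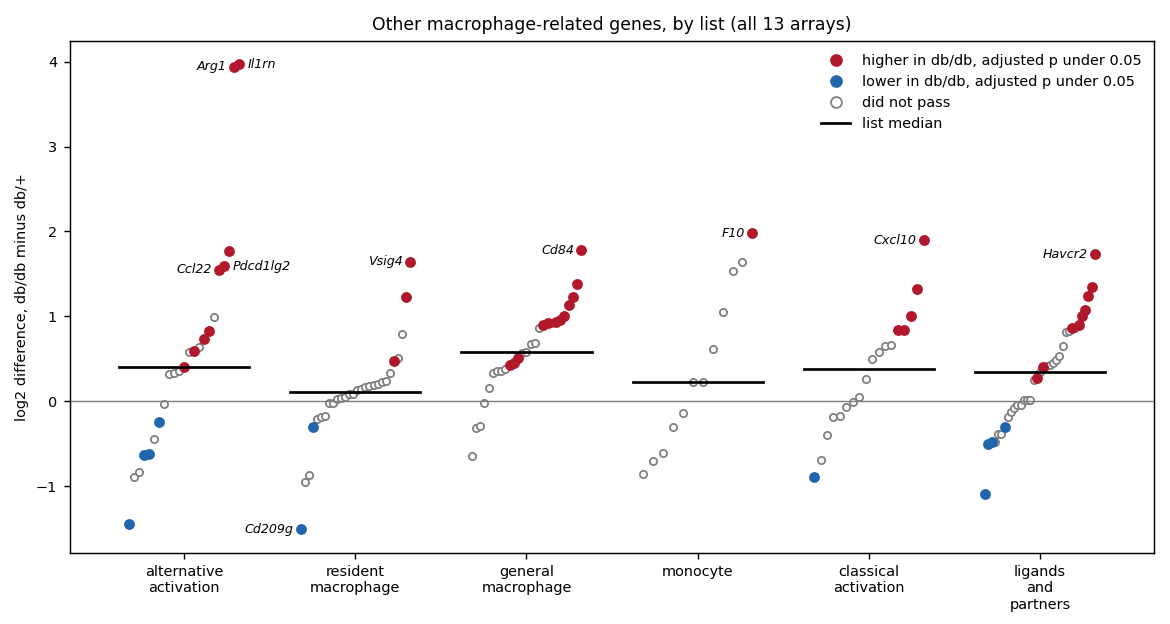
Log2 difference, db/db minus db/+ over all 13 arrays, of every measured gene of the 6 lists (one column a list, genes in order of their difference). Filled points passed the limma adjusted p threshold of 0.05, open points did not, and black bars are list medians, which run from 0.11 for resident macrophage genes to 0.58 for general macrophage genes. Arg1 and Il1rn stand highest.

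Markers of other cells were compared in the same way. Of 9 neutrophil markers 1 rose, S100a8, by 2.72 ± 0.42 (SE, limma adjusted p = 0.000749), and 0 fell, and the list's mean was 6.63 to 8.37 in db/db and 6.19 to 8.48 in db/+. Of 8 dendritic cell markers 2 rose, Itgax by 3.21 ± 0.36 (limma adjusted p = 7.67e-05) and Ccr7, and 1 fell, with a mean of 8.82 to 9.26 in db/db and 8.29 to 9.30 in db/+. Itgax encodes the integrin chain CD11c, which macrophages can also carry. On the 9 arrays without the 4, 1 neutrophil marker rose and 1 fell, and 1 dendritic cell marker rose and 2 fell. Their part in the Chil3 and Adgre1 levels was not tested.

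Of 10 cell cycle genes 9 rose and 0 fell, and their mean was 7.30 to 9.99 in db/db and 5.81 to 7.21 in db/+. Without the 4 arrays 1 of them, Cdk1, rose, and the list's median was 1.45 against 1.88 over all arrays. Of 8 adipocyte markers 5 rose and 0 fell, and their mean was 12.95 to 13.07 in db/db and 11.70 to 12.70 in db/+. Of 6 Schwann cell markers 0 rose and 3 fell, with a mean of 9.26 to 10.14 in db/db and 9.69 to 10.80 in db/+. Of 7 mast cell markers 0 rose and 2 fell, with a mean of 9.01 to 9.82 in db/db and 9.31 to 10.57 in db/+. Of 10 neuron markers 0 rose and 8 fell, and of 8 skeletal muscle markers 0 rose and 0 fell. The falls without the 4 arrays were 0 among Schwann cell, 2 among mast cell and 5 among neuron markers, and 2 adipocyte markers rose. Their part in the levels of the 10 genes was not tested.

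Genes with the most similar profile were found for 4 of the genes by the mean absolute difference between log2 levels, each centred on its own median, over 13 arrays. Nearest to Timd4 were Cd209g at 0.50, Ppl, the junction protein periplakin, at 0.52, and Lepr, the leptin receptor that the db mutation disrupts, at 0.58. Lepr itself was 6.30 ± 0.28 in db/db (SD, n = 6) and 7.72 ± 0.79 in db/+ (SD, n = 7). Nearest to Chil3 were Saa3, a serum amyloid protein, at 1.29, Dnmt3l, a cofactor of DNA methyltransferases, at 1.48, and S100a8, an alarmin of myeloid cells, at 1.56. These distances are wide because Chil3 itself spans 8.92 over the arrays. Nearest to Lyve1 were Fcna, ficolin A of macrophages, at 0.22, Ms4a8a at 0.29 and Emx2 at 0.30, and nearest to Csf1r were Reep3 at 0.07, Hexa, a lysosomal hexosaminidase, at 0.08 and Clec10a, a macrophage lectin, at 0.08. The measure describes likeness over these arrays, which differ in genotype and in the neuron markers.

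A contrast that the choice of genes did not use was that between the number runs within db/db nerve. The levels on these arrays were known at that choice, and the p-values do not account for that. With limma, 0 of the 10 genes passed between db/db 409 to 411 and db/db 110 to 112 (2.4% of all genes did), and 0 of the 10 and 3940 of all genes had an unadjusted p under 0.05. Lyve1 averaged 11.43 ± 0.52 in db/db 409 to 411 and 10.55 ± 0.59 in db/db 110 to 112 (SD, n = 3 each), a log2 difference of 0.89 ± 0.38 (SE, limma adjusted p = 0.206). The difference was 0.51 ± 0.22 for Cd14 (limma adjusted p = 0.204), 0.85 ± 0.44 for Timd4 (limma adjusted p = 0.280) and -0.46 ± 0.23 for Adgre1 (limma adjusted p = 0.274). With 3 arrays a side, differences of this size were not separated from the spread between arrays.

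The genotype differences within each run are built from the values known when the genes were chosen, so they are set side by side as a description. For Adgre1 the log2 difference was 0.23 ± 0.32 (SE) within samples 404 to 411 and 1.24 ± 0.24 within samples 101 to 112. For Cd14 it was -0.14 ± 0.19 within samples 404 to 411 and 0.59 ± 0.21 within samples 101 to 112. In the limma fit of the difference between the runs 0% of all genes passed, and 2360 had an unadjusted p under 0.05. The 4 db/+ arrays with high neuron markers all lie in the lower run, so run and those arrays cannot be told apart in this contrast.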

How the data were processed

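Gene expression was measured on 13 arrays, 6 of db/db and 7 of db/+ sciatic nerve, grouped by the genotype in their labels. The deposited values are log2 expression levels that the authors made with RMA, per the submitters' processing notes. They were taken without further normalization. RMA subtracts background, brings arrays to 1 scale and combines probes, which compresses folds of dim genes. The RMA version, the platform and a genome build for the probe sets are not given in the sources at hand, so no coordinates of probe sets are printed. Of 15479 probe sets, 42 controls were left out and 15437 were tested, of which 14801 had 1 gene symbol and 636 none. Array medians were 8.63 to 8.71, correlations between arrays 0.894 to 0.989, with 0 identical pairs.

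Differences were fitted for all genes in R 4.3.3 by limma 3.58.1 (lmFit, eBayes). Tests were two-sided, and p-values were adjusted by Benjamini-Hochberg across the 15437 genes, with a threshold of 0.05. The fit was tested on simulated data. Tables were made with Python 3.11.15, pandas 2.3.3 and numpy 2.4.6, and figures with matplotlib 3.10.9. The 10 genes, the lists and the promoter motifs were chosen with earlier results of these data known. The lists held 249 names, the 10 genes included, of which 223 were measured. The rule for named genes took the 10 genes, the 3 genes with the smallest p among those past the threshold in each macrophage list, the ligands and partners Csf1, Il34, Cx3cl1, Tlr4 and Ly96, the copy Chil4, and the 3 most similar genes for 4 of the 10. Alternatives were other variance moderation, quantile normalization, median centring, a mean level of at least 6, array weights, the number run as a block or each run alone, leaving out the 4 db/+ arrays, and leaving out each array. Levels relative to the general macrophage list were added after the data were seen.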

Additional observations from a re-analysis of the deposited data

Results flagged for a closer look

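A sample far from the others of its group was looked for in 86 groups, the levels of the 10 genes and of the other genes chosen by rule in db/db and in db/+. It was found in 6, where chance alone gives about 1 in 20 if groups are independent. These groups share arrays and are not independent, so the count is not read against that rate. Mrc1 was 12.41 in db/db 410, below the other db/db arrays at 12.77 to 12.85, and Folr2 was 12.15 on the same array, below the others at 12.68 to 12.83. Chil3 was 9.89 in db/+ 407, above the other db/+ arrays at 3.52 to 6.22. Emx2, a homeobox gene, was 7.66 on that array, above the others at 5.80 to 6.47. Timd4 was 6.46 in db/+ 101, below the other db/+ arrays at 8.44 to 9.77. That array also had the highest mean of skeletal muscle markers, 11.79, whose part in the Timd4 level was not tested. Cxcl10 was 12.67 in db/db 409, above the other db/db arrays at 8.56 to 9.34.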

How the results depend on the processing

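Counts past the threshold moved with array weights and with the choice of arrays. Over all arrays 3867 genes, 3 of the 10 macrophage genes and 49 of the 142 other macrophage-related genes passed. With array weights these were 6525, 6 and 78, and of the 6 macrophage genes 4 were higher and 2 lower in db/db. Within samples 404 to 411 they were 1404, 1 and 12. Without db/+ 101, 103, 104 and 106 they were 1992, 1 and 24. With the number run as a block in addition they were 2987, 2 and 28, and the 2 were Chil3 and Timd4. Leaving out 1 array at a time gave 2893 to 4529 genes, 3 to 3 of the 10, and 34 to 63 of the 142. In the contrast of runs within db/db and in the difference of genotype effects, each left-out array gave 0 to 0 of the 10. Of the 10 genes and the genes chosen by the rule, 0 values called in the unweighted fit of all arrays changed sign under the alternatives run. The neuron marker Pou4f1, outside that rule, was at -3.09 over all arrays, where it passed, and at 0.19 within samples 404 to 411, where it did not. The differences of Mrc1, Cd163, Folr2, Csf1r and Cd14, none called in the unweighted fit of all arrays, turned negative without the 4 arrays. They were also negative relative to the 27 general macrophage genes. That calculation was chosen after seeing the data and lowers every gene's difference by the same amount. The causes were not tested. No paired analysis was possible because db/db and db/+ share no sample numbers. Array number and the missing detection calls limit what can be said of dim genes such as Cx3cr1, Chil4 and Pdcd1lg2.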

Other observations

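Values of some further genes of the lists, chosen after their values were seen, were as follows. The lectins Cd209a and Cd209f, relatives of Cd209g, were at 7.08 to 8.49 and 10.01 to 11.60 in db/db and at 7.61 to 9.83 and 10.73 to 12.65 in db/+. Their log2 differences were -0.94 ± 0.35 and -0.87 ± 0.33 (SE, limma adjusted p = 0.0657 and 0.0703). Without the 4 db/+ arrays these were -1.63 and -1.34, and Cd209a passed while Cd209f did not. Their close relatives Cd209b and Cd209d were at 0.19 ± 0.41 and -0.19 ± 0.33 (limma adjusted p = 0.763 and 0.718), and whether their probe sets share signal was not tested. Alox15, a lipoxygenase of alternatively activated macrophages, was at 7.47 to 8.15 in db/db and 7.78 to 9.96 in db/+, a difference of -0.89 ± 0.32 (limma adjusted p = 0.0601). On those 9 arrays its difference was -1.69 and it passed. Il4 itself was dim, at 4.77 to 5.93 in db/db and 4.94 to 6.72 in db/+, a difference of -0.47 ± 0.28 (limma adjusted p = 0.241). Without the 4 arrays the Il4 difference was -1.07 and it passed. Has2, a hyaluronan synthase, fell by 1.10 (SE 0.26, limma adjusted p = 0.00856) and was lower without the 4 arrays too, at -1.47.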
